A study of Mus musculus with 7 samples.

Results

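Deuterosome-stage cells are cells in the process of making the many centrioles on which motile cilia are later built, and 368 of 26709 cells (1.38%) in the cultures met the rule used here for that stage. A cell was counted when its barcode passed 2 quality limits (500 or more genes seen, mitochondrial share of UMIs not above 10%, where a UMI, a unique molecular identifier, stands for 1 captured transcript), at least 2 of the genes Ccno, Deup1, Mcidas, Cdc20b and Gmnc were detected, and Top2a and Mki67, which mark dividing cells, had at most 1 UMI together. The rule used measured values of these genes, so their own values are given as a description without a test. The cells come from hippocampi of newborn (postnatal day 0) mice, dissociated with trypsin and grown on coated glass in serum-containing medium. Single-cell RNA was counted with a 3' droplet assay after 1 (1 library), 3 (2 libraries), 5 (2 libraries) and 7 (2 libraries) days in vitro (DIV). The labels name no genotype, strain, sex or treatment, and the groups differ in days in culture. Whether replicate libraries came from different cultures is not stated, so a p-value reflects library-to-library spread alone, and this may be technical.

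A multiciliated cell such as an ependymal cell of the brain ventricles carries a tuft of beating cilia, and each cilium stands on its own basal body, a modified centriole. A dividing cell makes only a pair of new centrioles, whereas a cell on the way to the multiciliated state makes them in large numbers, many of them on ring-like protein assemblies called deuterosomes, whose scaffold is the Deup1 protein. Gmnc and then Mcidas, nuclear proteins that act with E2F factors, start this programme, and Ccno and Cdc20b sit downstream and take part in centriole amplification. Myb, Trp73 and Foxj1 are transcription factors of the same programme, and Foxj1 together with the Rfx factors turns on the genes of the moving axoneme, the dynein arms, radial spokes and central pair. Differentiating multiciliated cells are known to reuse cell-cycle regulators while they do not divide.

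The libraries held 3009 to 5401 barcodes and 36226566 to 114119537 UMIs each. Deuterosome-stage cells had a median of 12073 UMIs (range 709 to 51047), and their median per library lay between 9914.5 and 20236.5 UMIs, against 8856 to 18336 UMIs in ciliated cells of the same libraries. Scrublet, a doublet caller, called 161 of the kept cells and only 1 of the 368. When the highest scores were removed at the rate expected from the number of barcodes, 5 of the 368 were among the 935 removed cells. Between 10 and 34 kept barcodes were shared by any pair of libraries, and no deuterosome-stage barcode was a deuterosome-stage barcode in another library, while 10 of the 368 barcodes were also kept in another library as another kind of cell. Transcripts of other cell types were present in some of the cells. These counts used short gene sets and not the longer marker lists used further below. The genes were Stmn2 and Snap25 for neurons, Sox10 and Olig1 for the oligodendrocyte lineage and Col1a1 and Col3a1 for fibroblasts. Microglia were counted on C1qa, C1qb and Ctss and choroid plexus on Folr1, Clic6 and Kcnj13. At least 3 UMIs of neuron markers were found in 32 of the 368 and of oligodendrocyte-lineage markers in 26. Fibroblast markers reached this in 9 and microglial markers in 2, and together these were 63 cells (17.1%). Of these 63 cells 31 were among the 122 of DIV5 replicate 1. Leaving such cells out kept 7 of 12 cells in DIV3 replicate 1. It kept 109 of 121 and 63 of 72 in DIV7 replicates 1 and 2. Choroid plexus markers reached 3 UMIs in 14 cells. They were not counted toward the 63, nor used in the fits that left out cells with transcripts of other types. No cell had 3 UMIs of the Cajal-Retzius genes Lhx1, Lhx5 and Nhlh2. The same held for the endothelial genes Cldn5 and Pecam1 and the intermediate progenitor genes Eomes and Neurog2.

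Among the genes of the rule, Ccno was detected in 283 of the 368 cells, Deup1 in 252, Mcidas in 185, Gmnc in 101 and Cdc20b in 94. Exactly 2 of the 5 genes were detected in 64.4% of the cells, 3 in 23.4%, 4 in 11.4% and all 5 in 3 cells. In 128 cells the only evidence was 1 UMI of each of 2 genes. Ccno and Deup1 were found together in 173 cells and Ccno and Mcidas in 161, and Mcidas and Gmnc shared 25 cells and Cdc20b and Gmnc 8. Every cell needed at least 2 of the 5 genes. These pair counts therefore follow in part from the rule and from how often each gene was detected. Just outside the rule lay 1553 cells with exactly 1 of the 5 genes. On the Top2a and Mki67 limit 241 cells had 0 UMIs and 127 had 1, and a further 94 cells with 2 and 80 with 3 UMIs met the rest of the rule but lay outside it.

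Genes that the rule did not use were read beside it. Foxj1, the forkhead factor of motile cilia, was detected in 97.3% of deuterosome-stage cells (exact 95% binomial interval 95.1 to 98.7%), 98.2% of ciliated cells (97.2 to 98.9%) and 48.0% of glial cells (46.9 to 49.2%). Here ciliated cells are the 1110 cells with at least 10 UMIs of Ccdc153, Rsph1 and Meig1 together and fewer than 2 of the 5 genes, and glial cells are 7133 cells with at least 5 UMIs of the glial genes Slc1a3 and Fabp7, none of the 5 genes, at most 1 ciliated-cell UMI and few transcripts of dividing cells, neurons, microglia or fibroblasts. Myb was detected in 64.4% of deuterosome-stage, 32.1% of ciliated and 1.88% of glial cells. Plk4, the kinase that starts centriole duplication, was detected in 38.9%, 16.1% and 10.6% of the same classes, and Trp73 in 32.1%, 20.8% and 0.449%. Intervals cover counting error only. In 4630 cells gated on neuronal transcripts, which serve as a background for stray RNA and for expression outside this lineage, Myb was detected in 2.14%, Plk4 in 10.5%, Trp73 in 4.92% and Foxj1 in 10.3%, so the glial Plk4 share was at the background and the glial Foxj1 share was above it. With every cell thinned to 5000 UMIs after gating, Myb was left in 44.3% of 348 deuterosome-stage cells and 17.4% of 1060 ciliated cells, and Foxj1 in 93.4% and 93.7%. Neuron-gated cells, gated here after thinning (3438 cells), then held Myb in 0.814%, Plk4 in 3.43%, Trp73 in 3.55% and Foxj1 in 3.37%. The Myb shares of deuterosome-stage and ciliated cells were thus ordered the same way at equal depth, and the Foxj1 shares of these 2 classes were not separated. The 2-gene rule itself was met by 11 of the neuron-gated cells (0.238%) and by 5 of 875 microglia-gated cells (0.571%). Beside ciliated, glial and neuron-gated cells these values do not go against the name deuterosome stage. However, 147 of the 368 cells also held ciliated-cell transcripts at the level that defines the ciliated class. Another 489 cells met the 2-gene rule with more than 1 UMI of Top2a and Mki67. They held Myb, Plk4 and Deup1 more often, as given below, so these transcripts were not most frequent in the set that carries the name.

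In the RefSeq annotation of GRCm38.p6 Ccno, Mcidas and Cdc20b are consecutive protein-coding genes in that order on chromosome 13, and the next is Gpx8, which lies inside the annotated span of Cdc20b. The 3 genes of the programme had 709, 345 and 119 UMIs in the 368 cells. The windows around the annotated starts of Ccno and Mcidas and around 1 start of Deup1 are printed. They were chosen because these genes were detected in the most cells and because each window holds the same short motif. Each window runs from 250 bases before to 50 bases after the start in RefSeq, build GRCm38.p6, on the strand of the gene, and capitals mark the arm GTTGCC, or its reverse complement GGCAAC, of the X-box, the motif bound by Rfx factors.
Ccno, chr13:112987552-112987851, plus strand: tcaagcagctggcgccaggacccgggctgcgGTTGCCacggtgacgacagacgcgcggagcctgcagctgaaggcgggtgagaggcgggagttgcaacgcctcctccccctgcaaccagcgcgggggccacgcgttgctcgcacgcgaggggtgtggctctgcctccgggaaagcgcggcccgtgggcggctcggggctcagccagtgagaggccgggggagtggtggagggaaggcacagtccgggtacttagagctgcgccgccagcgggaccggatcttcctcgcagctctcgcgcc
Mcidas, chr13:112993618-112993917, plus strand: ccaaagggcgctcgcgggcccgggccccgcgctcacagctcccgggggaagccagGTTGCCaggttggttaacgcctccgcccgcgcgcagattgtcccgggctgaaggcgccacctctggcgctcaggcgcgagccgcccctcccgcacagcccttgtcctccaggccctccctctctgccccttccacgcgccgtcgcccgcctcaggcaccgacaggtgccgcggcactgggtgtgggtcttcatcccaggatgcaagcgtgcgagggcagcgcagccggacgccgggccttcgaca
Deup1, chr9:15627797-15628096, minus strand: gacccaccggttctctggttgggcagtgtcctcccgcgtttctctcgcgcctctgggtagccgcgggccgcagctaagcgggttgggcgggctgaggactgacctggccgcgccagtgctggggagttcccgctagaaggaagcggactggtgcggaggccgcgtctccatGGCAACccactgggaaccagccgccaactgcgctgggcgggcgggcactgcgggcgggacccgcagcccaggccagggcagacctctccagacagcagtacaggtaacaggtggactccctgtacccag
The arm starts 219 bases before the start of Ccno and 195 bases before that of Mcidas, and in Deup1 it lies on the opposite strand 79 bases before the start. Searched on both strands, it is present in 12.5% of the 32851 windows in the table, so it is a common word. It was not found in the windows of Cdc20b and Gmnc or in the other window of Deup1. The full X-box with both arms (0.45% of all windows), the forkhead word GTAAACA (3.65%) and the E2F word TTTCCCGC (1.07%) were found in no window of the 5 genes. The full X-box was searched only as a fixed word with both arms exact. Looser forms, in which the second arm differs from that word, were not searched. The capitals mark only the exact arm, and whether a looser second arm lies beside it was not tested. The files were made against mm9, per the submitters' processing notes, so the window coordinates belong to the RefSeq table and not to the counts.

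The cells were rare in young cultures and more frequent later. They were 0.171% of cells in the DIV1 library (7 cells, exact interval 0.0687 to 0.352%), and 0.233% (12 cells, 0.121 to 0.407%) and 0.282% (8 cells, 0.122 to 0.555%) in DIV3 replicates 1 and 2. DIV5 replicate 1 had 2.84% (122 cells, 2.36 to 3.38%) and DIV5 replicate 2 had 0.673% (26 cells, 0.440 to 0.985%). DIV7 replicate 1 had 4.09% (121 cells, 3.41 to 4.87%) and DIV7 replicate 2 had 2.05% (72 cells, 1.61 to 2.57%). Both DIV5 and both DIV7 libraries lay above the 3 younger ones, while the DIV5 and DIV7 ranges overlapped. Across the 7 libraries the share against day had Pearson's r = 0.798 (exact permutation p = 0.0333, adjusted over 4 relations 0.0667) and Spearman's rho = 0.899 (exact permutation p = 0.0127, adjusted 0.0508), two-sided, so neither passed after adjustment. With the 2 libraries of most extreme day removed, r was 0.703 to 0.890, depending on which of the libraries tied in day were left out. Leaving out DIV1 (r = 0.8003), DIV3 replicate 1 (0.778), DIV3 replicate 2 (0.778) or DIV7 replicate 1 (0.729) took the unadjusted p above 0.05.

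**Figure D1:**
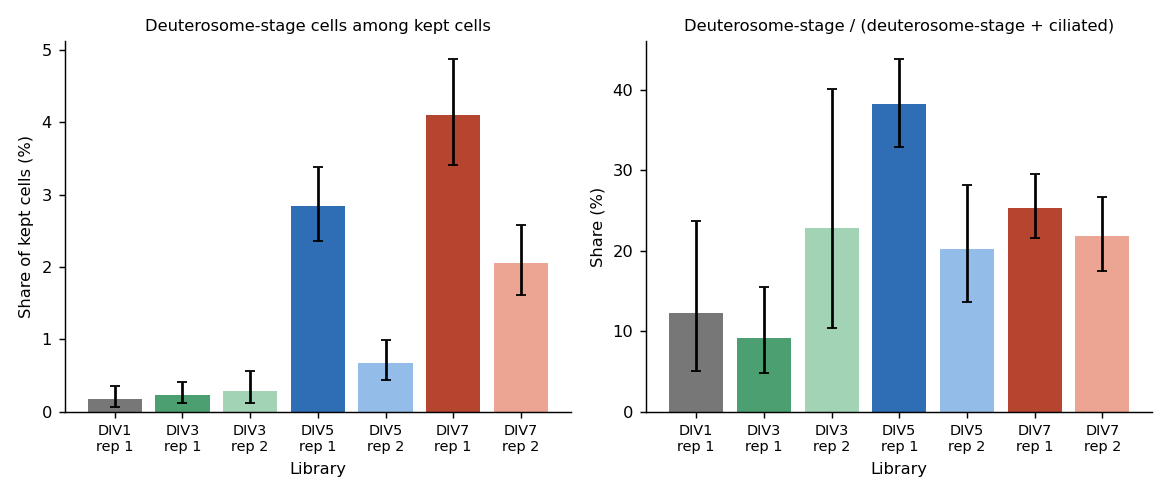
Share of kept cells (percent, left panel) that met the deuterosome-stage rule and their percent among deuterosome-stage plus ciliated cells (right panel), 1 bar per library in order of day, with the exact 95% binomial interval as error bar. The share lies at 0.171 to 0.282% in the 3 libraries of DIV1 and DIV3 and at 0.673 to 4.09% in the 4 libraries of DIV5 and DIV7, and the ratio has no such order.

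Ciliated cells also became more frequent, so the share was read against them. Deuterosome-stage cells made up 12.3% of deuterosome-stage plus ciliated cells in the DIV1 library. The DIV3 libraries had 9.16% and 22.9%, the DIV5 libraries 38.2% and 20.2%, and the DIV7 libraries 25.4% and 21.8%. The highest value was that of DIV5 replicate 1 and the lowest that of DIV3 replicate 1, and no day lay apart from the others. This ratio against day had r = 0.530 (exact permutation p = 0.217, two-sided), and with cells thinned to 5000 UMIs before gating r was 0.0193. After thinning, DIV3 replicate 2 held only 3 deuterosome-stage and 2 ciliated cells, a ratio of 60% (exact interval 14.7 to 94.7%). A change of the ratio with day was not detectable with 7 libraries. Replicates of a day differed from each other: DIV5 replicate 1 had 122 deuterosome-stage cells and 664 neuron-gated cells, against 26 and 506 in DIV5 replicate 2.

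Counts were next summed over the cells of a class in each library, and deuterosome-stage cells were set against ciliated cells of the same library. Values are CPM, the UMIs of a gene scaled to a common total for every library and class and adjusted by TMM within the comparison. Their order is always DIV3 replicate 1, DIV5 replicates 1 and 2, DIV7 replicates 1 and 2. Log2 fold changes are from edgeR's quasi-likelihood test with the library as a block. The value after ± is an approximate standard error, the absolute log2 fold change divided by the square root of the test's F. The 5 libraries with at least 10 cells of each class were used, which leaves out the 15 cells of DIV1 and DIV3 replicate 2. Of 11431 genes 639 were higher (5.59%) and 900 lower (7.87%) in deuterosome-stage cells, together 13.5% (964 genes without DIV5 replicate 1 and 905 without DIV7 replicate 1), and the median gene had a log2 fold change of -0.0029. Genes of centriole amplification and their regulators were among the higher genes and structural genes of the axoneme among the lower. Both classes were chosen on transcripts of these same cells, so the tests give how repeatable a difference was between libraries and not that the classes are separate types. The ciliated class required 10 UMIs of ciliated-cell genes, which deuterosome-stage cells did not need. With only deuterosome-stage cells under 10 such UMIs, 24 dynein and 45 of 46 spoke genes were lower. That setting widens the difference in the gate, so it cannot separate these falls from the choice of cells.

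Among 19 tested regulators of the multiciliated programme 4 rose and 1 fell, with a median log2 fold change of 0.06, and without DIV5 replicate 1 only 1 rose. Myb, a transcription factor active during centriole amplification, had 26.0, 218, 122, 162 and 245 CPM in deuterosome-stage cells, against 11.2, 26.6, 46.8, 44.8 and 52.0 CPM in ciliated cells (log2 2.16 ± 0.21, adjusted p = 6.55e-05). It was higher in 5 of 5 libraries, and the DIV3 library was low in both classes. Foxj1 had 405, 1176, 1029, 1136 and 1334 CPM in deuterosome-stage cells, against 448, 692, 784, 892 and 929 CPM in ciliated cells, and rose by 0.41 ± 0.10 (adjusted p = 0.00581). It was higher in the 4 libraries of DIV5 and DIV7 and lower in the DIV3 library, and without DIV5 replicate 1 its adjusted p was 0.0744. Trp73, a p53-family factor upstream in the programme, rose by 1.11 ± 0.32 (adjusted p = 0.0488) with 7.44, 67.0, 33.1, 31.6 and 43.5 CPM, against 11.7, 12.4, 21.0, 21.7 and 25.2 CPM in ciliated cells, which did not hold without DIV5 replicate 1 (adjusted p = 0.122), DIV5 replicate 2 (0.125) or DIV7 replicate 2 (0.104). Cdkn1a, a cell-cycle inhibitor, was the other regulator that rose and Ulk4, a kinase-like protein, the one that fell. Rfx2 and Rfx3, whose products bind the X-box, had log2 fold changes of -0.01 ± 0.16 and -0.01 ± 0.12 and did not pass the test.

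Of 35 tested genes of deuterosome and centriole assembly, with Deup1, Ccno and Cdc20b left out, 7 rose and 3 fell (median log2 fold change 0.29). The 7 were Stil, Cep152, Cep295, Plk4, Tube1, Cep192 and Pcnt, and the 3 were Cetn4, Cep131 and Cetn2. Stil, the partner that activates Plk4, had 0, 11.8, 13.2, 15.8 and 24.1 CPM in deuterosome-stage cells, against 2.16, 1.73, 0.955, 1.85 and 0.812 CPM in ciliated cells (3.07 ± 0.46, adjusted p = 4.22e-05). Cep152, which recruits Plk4 to the parent centriole, had 0, 21.1, 16.5, 16.5 and 10.9 CPM, against 2.16, 2.42, 0.955, 2.31 and 2.84 CPM in ciliated cells (2.57 ± 0.41, adjusted p = 8.13e-05). Both were at 0 in the 12 cells of the DIV3 library and above every ciliated value in the other 4. Plk4 itself had 18.6, 60.8, 26.5, 38.9 and 56.7 CPM, against 12.1, 25.9, 48.7, 20.6 and 29.6 CPM in ciliated cells, a rise of 0.80 ± 0.20 (adjusted p = 0.00892). The Plk4 groups overlapped, DIV5 replicate 2 was lower in deuterosome-stage cells, and the call was lost without DIV5 replicate 1 (adjusted p = 0.138), DIV7 replicate 1 (0.0784) or DIV7 replicate 2 (0.0617). Without DIV7 replicate 1 or DIV7 replicate 2 only 2 genes of this list rose, and without DIV5 replicate 1 only 3. Hyls1, a centriole protein needed for cilium formation, was outside the list and rose by 3.16 ± 0.31 (adjusted p = 9.03e-08). Its level was 3.72, 29.8, 33.1, 39.5 and 35.0 CPM, against 3.46, 2.42, 2.86, 2.77 and 5.28 CPM in ciliated cells. The centrins Cetn4 and Cetn2, calcium-binding proteins of the centriole, fell with a log2 fold change of -0.92 ± 0.09 and -0.35 ± 0.09 (adjusted p = 1.08e-07 and 0.0114), Cetn4 in 5 of 5 and Cetn2 in 4 of 5 libraries. Without DIV5 replicate 1 or DIV7 replicate 1 Cetn2 had an adjusted p of 0.121 or 0.0722.

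**Figure D2:**
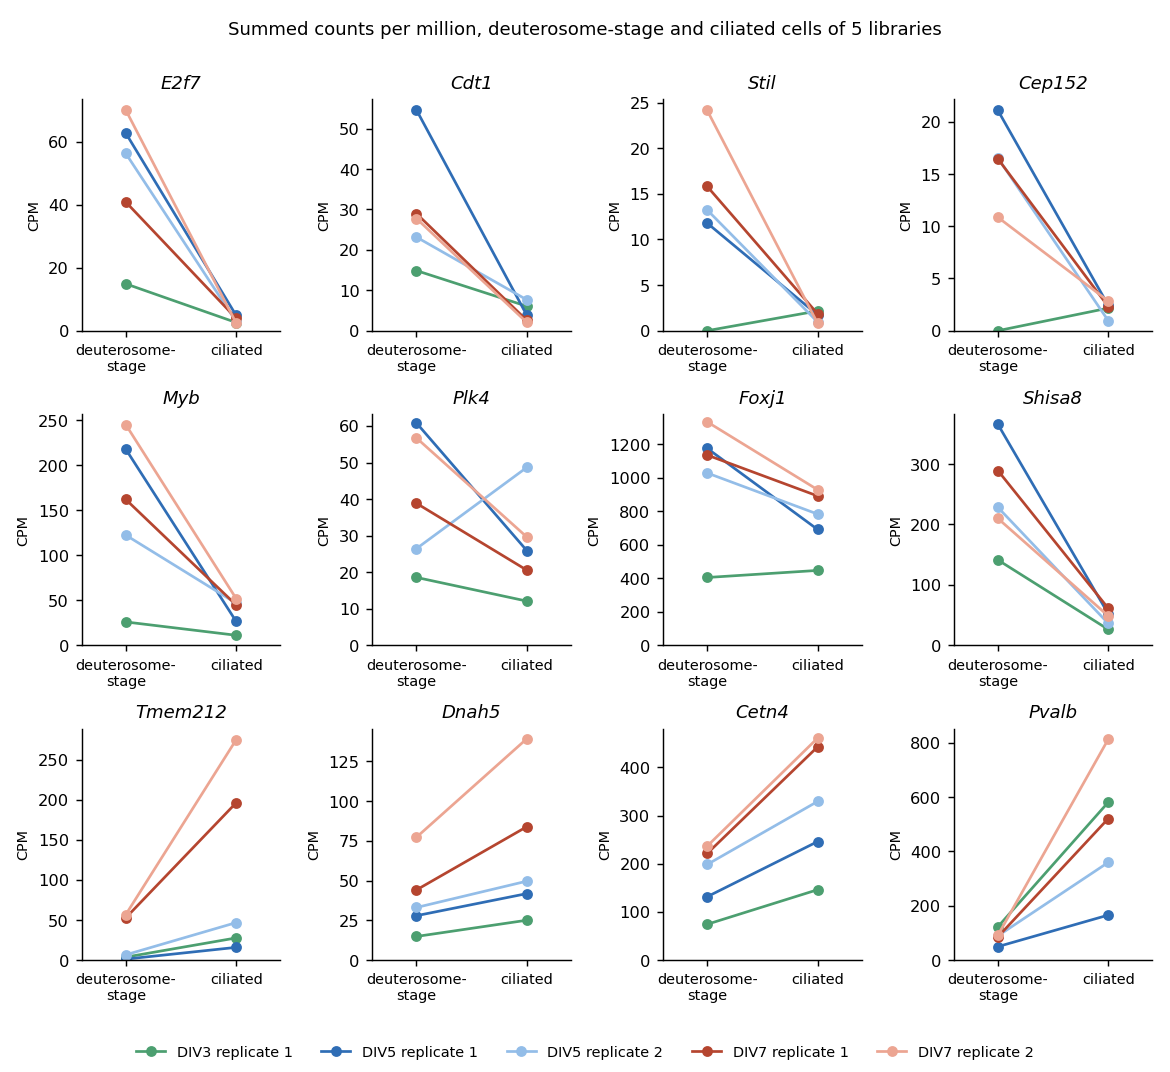
CPM of selected genes in deuterosome-stage cells (left) and ciliated cells (right) of the same library, 1 line for each of 5 libraries. Myb and E2f7 lie higher on the deuterosome-stage side in all 5 libraries, Stil and Cep152 in the 4 libraries of DIV5 and DIV7, and Tmem212 lies lower in all 5.

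Cell-cycle genes were called in both directions. Of 31 tested kinases, cyclins and anaphase-complex genes 4 rose (Cdkn2c, Ccnd3, Wee1 and Cdk6) and 6 fell (Ccna2, Birc5, Ube2c, Kif11, Pttg1 and Aurkb), and of 26 replication genes 3 rose (Cdt1, Mcm3 and Gins2) and 4 fell. Without DIV5 replicate 1, DIV7 replicate 1 or DIV7 replicate 2 only 2 of the cell-cycle genes rose, and leaving out any 1 library left 2 replication genes lower. Only 1 replication gene rose when either DIV7 library was left out, against 6 when the DIV3 library was left out. The ciliated class had no limit on Top2a and Mki67: Top2a had 116 UMIs in the 368 deuterosome-stage cells, 1 in each cell that had any, and 834 UMIs in 239 of the 1110 ciliated cells. With ciliated cells held to the same limit of 1 UMI, an alternative added after seeing the data, 9 cell-cycle genes rose and 2 fell (median 0.73), and 8 replication genes rose and 1 fell. Birc5, a chromosomal passenger protein of mitosis, then had a log2 fold change of 0.73 (adjusted p = 0.225) in place of -1.38 ± 0.26 (adjusted p = 0.000589). Cdt1, the replication licensing factor, rose by 3.08 ± 0.31 (adjusted p = 4.39e-07), with 14.9, 54.6, 23.2, 29.0 and 27.8 CPM in deuterosome-stage cells, against 6.05, 3.801, 7.64, 2.54 and 2.03 CPM in ciliated cells. E2f7, an E2F family repressor of cell-cycle genes, rose most of the genes that met the naming rule, by 3.76 ± 0.24 (adjusted p = 2.4e-11). It had 14.9, 62.7, 56.2, 40.8 and 70 CPM in deuterosome-stage cells, against 2.59, 4.84, 2.86, 3.93 and 2.44 CPM in ciliated cells, and the groups did not overlap.

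Most tested dynein and spoke genes of the moving cilium were lower. Of 25 tested axonemal dynein and docking genes 18 fell and none rose (median -0.63), and of 48 genes of the radial spokes, central pair and ruler 38 fell and none rose (median -0.74). Intraflagellar transport and BBSome genes fell in 11 of 42 cases (median -0.29), dynein preassembly factors in 4 of 15 and basal body appendage or transition zone genes in 6 of 28, with 2 of the last group higher. Without DIV5 replicate 1 there were 11 dynein, 6 transport and 3 basal body genes lower, without DIV7 replicate 1 or DIV7 replicate 2 there were 7 transport genes and without DIV7 replicate 1 there were 3 basal body genes. Leaving out any 1 library left 28 to 39 spoke genes lower, and without the library block none of these lists had a call. Dnah5, a heavy chain of the outer dynein arm, had 14.9, 27.9, 33.1, 44.1 and 77.2 CPM in deuterosome-stage cells, against 25.1, 41.8, 49.6, 83.9 and 139 CPM in ciliated cells (-0.78 ± 0.14, adjusted p = 0.000321). It was lower in every library, and both classes were higher at DIV7 than at DIV3, so the ranges overlapped. Hydin, a central pair protein, fell with a log2 fold change of -0.87 ± 0.18, Tekt1, a tektin of the doublet microtubules, with -0.74 ± 0.12 and Dnah9, another outer arm heavy chain, with -0.59 ± 0.12 (adjusted p = 0.00117, 0.000163 and 0.00149), each in 5 of 5 libraries. Tubb4b, a tubulin used in axonemes, fell with a log2 fold change of -0.85 ± 0.08 (adjusted p = 1.13e-07). Tmem212, a gene of ciliated cells, had 3.72, 1.24, 6.62, 52.7 and 56.7 CPM in deuterosome-stage cells, against 27.7, 15.9, 46.8, 196 and 275 CPM in ciliated cells (-2.19 ± 0.17, adjusted p = 1.05e-09). It was lower in 5 of 5 libraries, and both classes were highest in the DIV7 libraries.

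**Figure D3:**
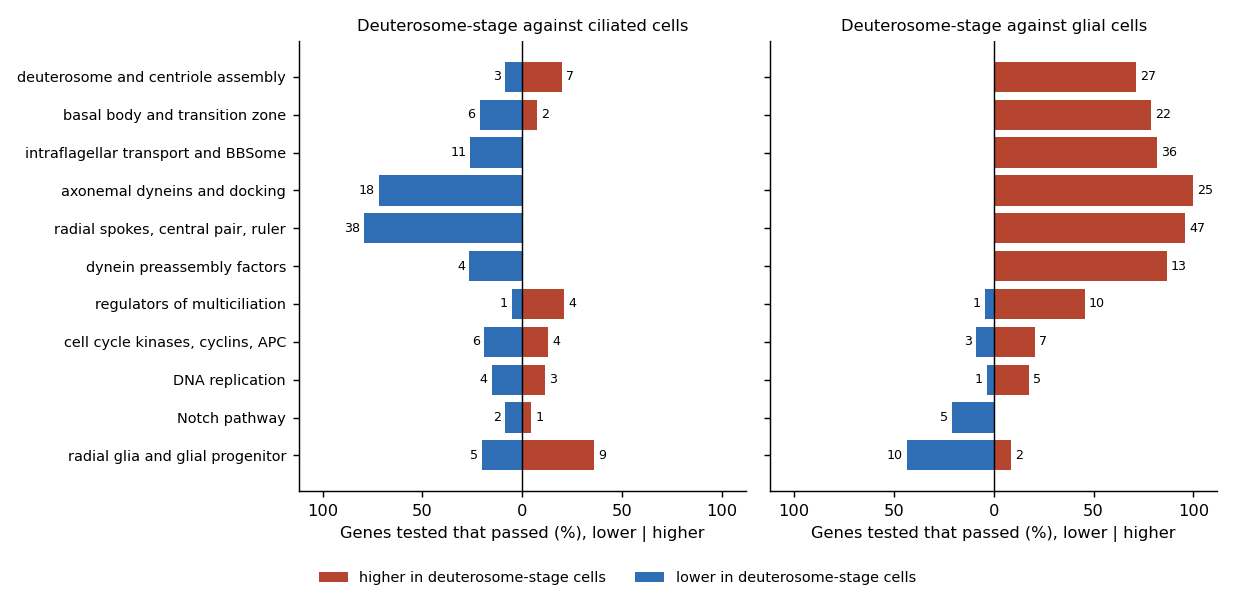
Percent of the tested genes of each list that were higher (bars to the right) or lower (bars to the left) in deuterosome-stage cells, against ciliated cells in the left panel and glial cells in the right panel, with the number of genes at each bar. In deuterosome-stage cells against ciliated cells 18 of 25 dynein genes and 38 of 48 spoke genes are lower and 7 of 35 centriole genes are higher, while against glial cells 25 of 25, 47 of 49 and 27 of 38 are higher.

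Beyond the lists, the 12 largest rises and 12 largest falls were taken among called genes of at least 20 CPM that moved alike in every library. Among the rises were also Shisa8, an auxiliary subunit of AMPA receptors (141, 366, 228, 289 and 210.0 CPM in deuterosome-stage cells, against 26.4, 52.2, 36.3, 61.2 and 48.7 CPM in ciliated cells, log2 2.43 ± 0.11), Plvap, a membrane protein best known from endothelial diaphragms (2.67 ± 0.15), and the small GTPase Rab15 (3.28 ± 0.30). Shisa8, Plvap and Rab15 were higher in 5 of 5 libraries (adjusted p = 5.4e-14, 1.86e-12 and 3.25e-08). Gap43, Grin2b, Gabra2 and Bhlhe22, genes of neurons, were among the rises as well. Their highest deuterosome-stage value was in DIV5 replicate 2, for Bhlhe22 3.72, 18.0, 102, 1.98 and 16.9 CPM, against 2.16, 2.42, 6.68, 1.62 and 4.87 CPM in ciliated cells. Of 9 tested neuron markers 5 rose and none fell (median 1.71), their summed level in deuterosome-stage cells was 178.5 to 1356 CPM, against 189.8 to 330 CPM in ciliated cells, and with cells of 3 or more UMIs of another type left out 1 of 4 tested markers rose. Without DIV5 replicate 2 only 3 neuron markers rose and Gap43 did not pass (adjusted p = 0.0772), and Grin2b reversed to -1.43 with at least 3 of the 5 genes required. The part of neuronal transcripts in the rise of these genes was not tested. Choroid plexus markers summed to 58.3 to 5402 CPM in deuterosome-stage cells (median 87.6), against 61.0 to 140.5 CPM in ciliated cells (median 94.0). The highest sum thus lay far above the median library. Kl, Prlr and Kcne2 were at 0 in deuterosome-stage cells. None of the 5 tested choroid plexus genes was called, but a test across libraries need not call a level that is high in only some of them.

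The largest falls were Pvalb, the calcium buffer parvalbumin, with 123, 49.6, 89.3, 85.6 and 91.7 CPM in deuterosome-stage cells, against 582, 166, 359.9, 521 and 814 CPM in ciliated cells (-2.42 ± 0.18, adjusted p = 8.92e-06), and Tmem212. The Pvalb groups did not overlap. The retinol-binding protein Rbp2 fell with a log2 fold change of -1.83 ± 0.23, the metalloproteinase inhibitor Timp4 with -1.69 ± 0.15 and the lipopolysaccharide-binding protein Lbp with -1.63 ± 0.18. Clec3b, which encodes tetranectin, fell with a log2 fold change of -2.04 ± 0.25, the oxygen-binding protein myoglobin, Mb, with -1.68 ± 0.25 and the epidermal growth factor receptor ligand Areg with -1.66 ± 0.35. Prr18, Mro and Pitpnm3 fell with a log2 fold change of -1.65, -1.53 and -1.53 (adjusted p of these 9 genes at most 0.00434, that of Areg). Of 25 genes of radial glia and glial progenitors 9 rose and 5 fell (median 0.31; 4 rose without DIV7 replicate 1). Lhx2, a homeodomain factor of forebrain progenitors, rose by 0.78 ± 0.13 (adjusted p = 0.000636), with 134, 425, 248, 230.5 and 189.5 CPM in deuterosome-stage cells, against 154, 199, 129.8, 129 and 109 CPM in ciliated cells, higher in the 4 DIV5 and DIV7 libraries. Tnc, Ptn, Mfge8, Gli3, Slc1a3, Id3 and Fabp7 were among the others that rose, Fabp7 by 0.39 ± 0.09, and Dbi, Sox9, Hopx, Nes and Id4 fell. The Fabp7 call was lost without DIV7 replicate 1 (adjusted p = 0.0685) and its sign turned with a stricter cell filter (-0.27).

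Against glial cells of the same libraries, deuterosome-stage cells carried both the amplification and the axonemal programme. Of 13014 genes 1788 rose (13.7%) and 1788 fell (13.7%), together 27.5%, in the same 5 libraries. With scaling to total counts the median gene moved by 0.19, to 0.11, and 2453 genes rose and 868 fell, so the balance of rises and falls depends on the scaling. All 25 tested dynein genes rose (median 2.93), as did 47 of 49 spoke and central pair genes (3.45), 36 of 44 transport genes (1.18), 13 of 15 preassembly factors, 27 of 38 centriole genes (1.26) and 22 of 28 basal body genes, and none of these lists had a fall under either scaling. The glial gate allowed at most 1 ciliated-cell UMI, and the part of that choice in the size of these differences was not tested.

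Myb had 23.4, 204, 109, 159 and 235 CPM in deuterosome-stage cells, against 0.755, 3.74, 2.13, 3.96 and 2.72 CPM in glial cells (5.76 ± 0.21, adjusted p = 3.86e-14). Trp73 had 6.68, 62.9, 29.5, 31.0 and 41.7 CPM, against 0.290, 1.05, 0.245, 1.80 and 0.320 CPM in glial cells (5.64 ± 0.39, adjusted p = 4.31e-09). Foxj1 had 364, 1102, 918, 1113 and 1279 CPM, against 72.9, 167, 83.6, 221 and 119 CPM in glial cells (2.86 ± 0.18, adjusted p = 3.31e-08). For all 3 factors every deuterosome-stage sum was above every glial sum, and the DIV3 library was the lowest of the deuterosome-stage sums. Foxn4, a forkhead factor with a role in multiciliated cells of Xenopus, had 34 UMIs in the deuterosome-stage sums, against 4 in the much larger glial sums (5.54 ± 0.80, adjusted p = 2.43e-05). Rfx2 and Rfx3 rose by 1.23 ± 0.20 and 0.92 ± 0.15 (adjusted p = 8.43e-05 and 7.61e-05), each in 5 of 5 libraries. E2f5, an E2F factor that works with Mcidas, was the only one of 22 regulators that fell (-0.83 ± 0.19, adjusted p = 0.0023), while 10 rose.

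Stil and Cep152 rose by 4.39 ± 0.58 and 3.13 ± 0.42 over glial cells and Plk4 by 1.37 ± 0.20 (adjusted p = 1.38e-05, 1.12e-05 and 2.28e-05). Of 34 tested cell-cycle genes 7 rose (Ccna1, Kif11, Nek2, Cdk1, Pttg1, Wee1 and Plk1) and 3 fell, the D-type cyclins Ccnd1, Ccnd2 and Ccnd3, and 5 fell without DIV7 replicate 2. Over all genes 13.7% rose and 13.7% fell, so the list's share of rises lay near that of all genes and its share of falls below it, and nothing is read from these counts about the list as a whole. Ccna1, cyclin A1, had 6.68, 20.4, 20.7, 36.8 and 39.4 CPM in deuterosome-stage cells, against 1.45, 2.10, 0.327, 2.34 and 0.959 CPM in glial cells (4.13 ± 0.42, adjusted p = 7.44e-07). Ccnd1 had 76.8, 50.1, 38.4, 56.1 and 63.6 CPM, against 198, 167, 110.0, 231 and 113 CPM in glial cells (-1.53 ± 0.17, adjusted p = 7.36e-07). Neither gene's groups overlapped, Ccna1 higher and Ccnd1 lower in deuterosome-stage cells. Nek2, a centrosomal kinase, and Cdk1, the mitotic kinase, rose by 3.91 ± 0.54 and 1.66 ± 0.32, and Ccnd2 fell with a log2 fold change of -0.99 ± 0.13 (adjusted p = 3.31e-05, 0.00259 and 4.67e-06).

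Of 24 tested Notch pathway genes none rose and 5 fell, namely the receptors Notch1 and Notch3, the targets Hes5 and Nrarp and the ligand-like Dner (median -0.28, all genes -0.08). Over all genes 13.7% fell, and the share of Notch genes that fell was not far from this, so the values stand for the single genes and not for the pathway. With scaling to total counts 2 rose and 4 fell. Notch3 is also on the list used here of markers of mural cells (pericytes and smooth muscle). Hes5 had 10.0, 1.75, 5.90, 2.58 and 6.94 CPM in deuterosome-stage cells, against 16.3, 10.9, 79.7, 3.96 and 32.7 CPM in glial cells (-2.17 ± 0.35, adjusted p = 8.63e-05). It was lower in 5 of 5 libraries, and glial Hes5 was highest in DIV5 replicate 2. Notch1 had 93.5, 58.2, 38.4, 42.6 and 45.1 CPM, against 114, 102, 133, 94.98 and 126 CPM in glial cells (-1.07 ± 0.18, adjusted p = 0.000111), and was lower in 5 of 5 libraries with no overlap of the groups. Nrarp, Notch3 and Dner fell with a log2 fold change of -1.57 ± 0.40, -1.04 ± 0.28 and -0.65 ± 0.19 (adjusted p = 0.00592, 0.00855 and 0.0148), Notch3 with an adjusted p of 0.0762 without DIV5 replicate 1 and Dner with 0.0669 without DIV5 replicate 2 and 0.106 without DIV7 replicate 2.

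The glial class was gated on at least 5 UMIs of Slc1a3 and Fabp7 together, which deuterosome-stage cells did not need, so lower levels of glial genes go along with the gate and its part in the falls below was not tested. With these 2 genes left out, 10 of 23 radial glia and progenitor genes fell and 2 rose (Sox2 and Gli3), and of 9 tested astrocyte markers 6 fell and none rose (3 fell without DIV7 replicate 2). Id1 and Id3, inhibitors of basic helix-loop-helix factors, fell with a log2 fold change of -1.09 ± 0.14 and -1.55 ± 0.18 (adjusted p = 4.18e-06 and 7.15e-05). Gfap, the astrocyte filament protein, had 1413, 4142, 2349, 5800.0 and 5119 CPM in deuterosome-stage cells, against 2650.0, 6100.0, 10180.0, 9822 and 19660.0 CPM in glial cells (-1.25 ± 0.30, adjusted p = 0.033). It was lower than in glia of the same library in 5 of 5 cases, but the call was lost without DIV3 replicate 1 (adjusted p = 0.0551), DIV7 replicate 1 (0.0955) or DIV7 replicate 2 (0.132). Aqp4, the water channel of astrocytes and ependyma, fell with a log2 fold change of -1.40 ± 0.26 (adjusted p = 0.00624; 0.0676 without DIV7 replicate 2). The largest falls were Rgs5, a regulator of G-protein signalling, at -3.48 ± 0.31, Ntsr2, a neurotensin receptor, at -2.83 ± 0.40, Glycam1 at -2.50 ± 0.40, Lcn2, a secreted lipocalin of reactive glia, at -2.47 ± 0.26 and Serpina3n, a protease inhibitor of reactive astrocytes, at -2.44 ± 0.28 (adjusted p at most 0.00459, that of Glycam1). Rgs5, like Notch3, is on the mural marker list, and the glial gate set no limit on mural or oligodendrocyte-lineage transcripts. Oligodendrocyte-lineage markers summed to 223.5 to 385.7 CPM in glial cells. In deuterosome-stage cells, scaled with ciliated cells, they summed to 52.06 to 168.8 CPM. Summed mural markers overlapped, at 357.7 to 1717 CPM and 449.9 to 2287 CPM. The part of such cells in these falls was not tested. The largest rises were axonemal genes such as Spag17, a central pair protein, at 6.90 ± 0.52 and Dnah12 at 6.78 ± 0.51, with Tmem212, Dmkn and Crocc2 at 6.39, 5.91 and 5.90. Gpx8, which lies within the span of Cdc20b and was not used by the rule, fell with a log2 fold change of -0.66 ± 0.15 (adjusted p = 0.00262), with 154, 72.8, 41.3, 60.0 and 50.9 CPM in deuterosome-stage cells, against 167, 120.4, 75.3, 115 and 79.8 CPM in glial cells. Whether the authors' counting kept reads of Gpx8 and Cdc20b apart is not given in the sources used here.

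The deuterosome-stage cells differed among themselves in how many axonemal transcripts they held. Ccdc153, Rsph1 and Meig1 together had a median of 6 UMIs per cell (range 0 to 135), 43 cells had none and 147 of 368 had at least 10, the limit that defined the ciliated class. All 7 cells of the DIV1 library reached 10, as did 3 of 12 and 0 of 8 at DIV3, 29 of 122 and 13 of 26 at DIV5, and 60 of 121 and 35 of 72 at DIV7. The limit cuts a range and not a type, since 12 cells had 8 or 9 UMIs and 23 had 10 to 12. Cells with 10 or more were compared with those under 10 in the 4 libraries of DIV5 and DIV7, in the order DIV5 replicates 1 and 2, DIV7 replicates 1 and 2. Their median UMIs per cell were 13886, 10091, 11862.5 and 10382, against 12748, 9738, 11132 and 10547 in the cells under 10. Of 7422 genes 972 rose (13.1%) and 809 fell (10.9%), together 24%. With at least 3 of the 5 genes required only 205 genes were called and without DIV7 replicate 1 1153.

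All 23 tested dynein genes rose with the ciliated-cell UMIs (median 1.98), as did 40 of 41 spoke genes (1.71), 30 of 39 transport genes (0.90), 10 of 12 preassembly factors and 15 of 25 basal body genes (8 without DIV7 replicate 1). The rise of a list of axonemal genes goes along with the cut on 3 other axonemal genes in the same cells. Ak7, an adenylate kinase of motile cilia, had 83.2, 82.8, 100.5 and 105 CPM in cells with 10 or more UMIs, against 2.52, 0, 5.61 and 4.96 CPM in cells under 10 (4.54 ± 0.35, adjusted p = 1.62e-12). Hdc, which makes histamine and marks ependymal cells, had 80.9, 108, 222 and 263 CPM, against 4.21, 7.41, 7.01 and 14.9 CPM in cells under 10 (4.41 ± 0.27, adjusted p = 6.33e-15). Both were separated in all 4 libraries, and Hdc was higher at DIV7 than at DIV5. Dynlrb2, a dynein light chain, rose by 2.43 ± 0.12, Tctex1d4 by 4.46 ± 0.27, Spag17 by 5.00 ± 0.45 and Dnah5 by 1.49 ± 0.26 (adjusted p at most 3.37e-05, that of Dnah5).

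The amplification genes did not all follow. Of 19 tested centriole genes 7 rose and none fell (median 0.45; 4 rose without DIV5 replicate 1 or DIV7 replicate 1), among them Cetn4 by 1.60 ± 0.16 and Cetn2 by 1.01 ± 0.13 (adjusted p = 6.99e-10 and 2.45e-07), whereas Plk4 had 53.1, 19.1, 48.9 and 67.5 CPM in cells with 10 or more ciliated-cell UMIs, against 63.1, 37.1, 29.4 and 49.6 CPM in cells under 10 (0.20 ± 0.25, adjusted p = 0.631). The difference in Plk4 was within its error and the groups overlapped. Of the regulators Ulk4 rose and Trp73 fell, and the other 14 tested did not pass. Trp73 had 32.4, 25.5, 27.1 and 35.0 CPM, against 79.1, 44.5, 37.9 and 54.5 CPM in cells under 10 (-0.83 ± 0.26, adjusted p = 0.0168), lower in 4 of 4 libraries, but without DIV5 replicate 1 the adjusted p was 0.267. Myb had 157, 89.2, 151 and 253 CPM, against 238, 170.5, 181 and 253 CPM in cells under 10 (-0.35 ± 0.15, adjusted p = 0.0911) and Foxj1 a log2 fold change of 0.29 ± 0.11 (adjusted p = 0.0519; 0.00938 without DIV5 replicate 1). Among the genes of the rule, given without a test, Deup1 had 120.2, 108, 214 and 260.1 CPM in cells with 10 or more, against 61.4, 37.1, 108 and 156 CPM in cells under 10, and Cdc20b 32.4, 57.3, 42.5 and 27.5 CPM, against 20.2, 7.41, 18.2 and 17.4 CPM. Gmnc, the earliest factor of the programme, ran the other way with 11.6, 31.9, 10.3 and 7.50 CPM, against 26.1, 51.9, 33.6 and 42.1 CPM, and Ccno and Mcidas overlapped between the groups.

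**Figure D4:**
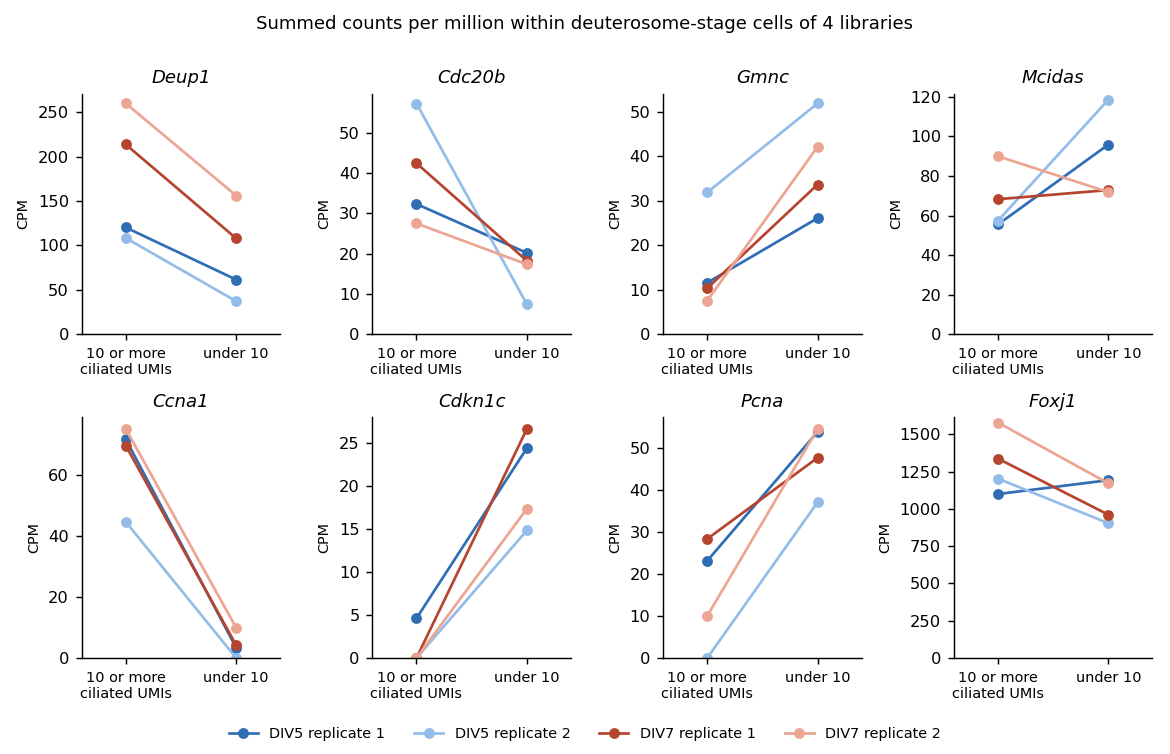
CPM in deuterosome-stage cells with 10 or more (left) and under 10 (right) UMIs of Ccdc153, Rsph1 and Meig1, 1 line for each of 4 libraries. Deup1, Cdc20b and Ccna1 lie higher with 10 or more in 4 of 4 libraries, Gmnc, Cdkn1c and Pcna lie lower in 4 of 4, and Mcidas and Foxj1 do not keep to a direction.

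Cell-cycle genes were again called in both directions, 4 of 18 higher (Ccna1, Pttg1, Nek2 and Kif11, with 2 higher without DIV7 replicate 2) and 6 lower (Ccnd2, Cdkn2c, Ccnd3, Cdkn1c, Cdkn1b and Wee1). Ccna1 had 71.6, 44.6, 69.5 and 75.02 CPM in cells with 10 or more ciliated-cell UMIs, against 3.36, 0, 4.21 and 9.91 CPM in cells under 10 (3.86 ± 0.37, adjusted p = 5.94e-10), and the groups lay far apart. Nek2 rose by 1.35 ± 0.43 (adjusted p = 0.018; 0.115 without DIV5 replicate 1 and 0.0939 without DIV7 replicate 2). Cdkn1c, the cell-cycle inhibitor p57, had 2 UMIs in the cells with 10 or more and 57 in the cells under 10, a ratio of 0.0502 after division by the classes' total UMIs (exact 95% interval 0.00593 to 0.190, counting error only). Pcna, the replication clamp, had 23.1, 0, 28.3 and 10.0 CPM, against 53.8, 37.1, 47.7 and 54.5 CPM in cells under 10 (-1.34 ± 0.33, adjusted p = 0.00214), and was the only one of 9 tested replication genes that was called. Ccnd2 fell with a log2 fold change of -1.15 ± 0.15 (adjusted p = 3.34e-06).

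Of 23 radial glia genes 9 fell and 1 rose in the cells with more axonemal transcripts, and of 8 astrocyte markers 6 fell and 2 rose (S100b and Sox9). Gfap had 3387, 1803, 4167 and 2703 CPM in cells with 10 or more ciliated-cell UMIs, against 4751, 3803, 8063 and 8282 CPM in cells under 10 (-1.03 ± 0.14, adjusted p = 0.000111). S100b, a calcium-binding protein of astrocytes and mature ependyma, ran opposite, with 62.4, 57.3, 74.7 and 120.0 CPM, against 23.6, 22.2, 8.41 and 37.2 CPM in cells under 10 (1.88 ± 0.27, adjusted p = 1.99e-06). The Gfap direction and the S100b direction were each seen in 4 of 4 libraries. Aqp4 fell with a log2 fold change of -0.66 ± 0.14 and Notch1 with -0.75 ± 0.24 (adjusted p = 0.000944 and 0.0204), Notch1 with adjusted p of 0.0532 without DIV7 replicate 1 and 0.116 without DIV7 replicate 2. Further named falls were Cntfr, the receptor of ciliary neurotrophic factor, at -2.34 ± 0.40, Arsi, an arylsulfatase, at -2.19 ± 0.32 and Akap12, a kinase scaffold, at -2.24 ± 0.25 (adjusted p at most 2.77e-05). Gng3, a G-protein subunit of neurons, and Col1a2, a fibroblast collagen, fell as well, with 9 and 22 UMIs in the cells with 10 or more, against 123 and 218 UMIs in the cells under 10. All 3 tested fibroblast markers and 2 of 8 tested neuron markers were lower. The number of neuron markers lower was 5 of 6 tested without DIV5 replicate 2 and 1 of 8 without any one of the other 3 libraries, and the part of transcripts of other cell types in these falls was not tested.

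A further 489 cells met the 2-gene rule but had more than 1 UMI of Top2a and Mki67, more than the 368 below that limit. They were deeper, with medians of 15279, 11577, 15325 and 13447 UMIs in DIV5 replicates 1 and 2 and DIV7 replicates 1 and 2, against 12963.5, 9914.5, 11563 and 10528 UMIs in the deuterosome-stage cells. Deuterosome-stage cells were compared with them in these 4 libraries. Of 10617 genes 919 were higher (8.66%) and 981 lower (9.24%) in deuterosome-stage cells, together 17.9%, and with cells thinned to 5000 UMIs 1468 were called. The number called was 1072 without DIV5 replicate 1, 798 without DIV7 replicate 1 and 1182 without DIV7 replicate 2. Cycling genes describe the split itself: of 32 tested cell-cycle genes 19 fell and none rose (median -1.49), with Aurka, Plk1 and Ccnb1, kinases and a cyclin of mitosis, at -3.81, -2.89 and -2.54.

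Centriole genes were lower in the cells with at most 1 UMI of Top2a and Mki67. The cells were split on these genes of dividing cells, and the part of the split in the falls below was not tested. Of 37 tested genes of deuterosome and centriole assembly 26 fell and none rose (median -0.9994, all genes 0.03), 16 without DIV7 replicate 1. Plk4 had 62.5, 27.6, 40.2 and 58.5 CPM in deuterosome-stage cells, against 103, 109.8, 82.5 and 124 CPM in the cells over 1 UMI (-1.002 ± 0.14, adjusted p = 0.000131). Stil had 12.1, 13.8, 16.3 and 24.9 CPM, against 27.5, 28.3, 53.3 and 76.8 CPM in the cells over 1 UMI (-1.49 ± 0.20, adjusted p = 5.15e-05). The 2 groups did not overlap for Plk4 or for Stil. Pcnt, the pericentriolar scaffold, fell with a log2 fold change of -1.34 ± 0.14 and Cep152 with -0.85 ± 0.22 (adjusted p = 3.21e-06 and 0.0134), Cep152 with adjusted p of 0.143 without DIV7 replicate 1 and 0.0599 without DIV7 replicate 2. Ccna1 and Nek2, which were higher in deuterosome-stage cells than in glia, were lower than in the cells over 1 UMI, with log2 fold changes of -1.61 ± 0.16 and -2.29 ± 0.16 (adjusted p = 2.45e-06 and 6.85e-08).

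Of 19 regulators 4 were lower (Foxn4, Foxj1, Gmnn and Myb, with 2 lower without DIV7 replicate 1) and Nfix was higher. Foxn4 had 5.74, 3.46, 13.6 and 4.97 CPM in deuterosome-stage cells, against 31.5, 14.2, 36.6 and 76.8 CPM in the cells over 1 UMI (-2.29 ± 0.30, adjusted p = 0.00011). Foxj1 had 1208, 1075, 1175 and 1374 CPM, against 1532, 1654, 1730.0 and 1932 CPM in the cells over 1 UMI (-0.50 ± 0.10, adjusted p = 0.00278; 0.0557 without DIV7 replicate 1). Foxn4 and Foxj1 were separated in all 4 libraries. Myb fell with a log2 fold change of -0.48 ± 0.15 (adjusted p = 0.0449), was higher in DIV5 replicate 1, and did not pass without DIV5 replicate 2 (0.0707), DIV7 replicate 1 (0.195) or DIV7 replicate 2 (0.216). Gmnn, geminin, which inhibits Cdt1, fell with a log2 fold change of -2.10 ± 0.45 (adjusted p = 0.00437; 0.097 without DIV5 replicate 1), and Cdt1 was higher by 0.66 ± 0.21 (adjusted p = 0.0361; 0.535 without DIV5 replicate 1, 0.0655 without DIV7 replicate 1 and 0.0661 without DIV7 replicate 2). Trp73 did not pass, at 0.39 ± 0.21 (adjusted p = 0.244). Among the genes of the rule, given without a test, Deup1 had 79.7, 76.0, 166 and 208 CPM in deuterosome-stage cells, against 252, 287, 372 and 444 CPM in the cells over 1 UMI, while Gmnc had 22.9, 41.5, 21.8 and 24.9 CPM, against 10.8, 7.08, 5.46 and 12.1 CPM. Deup1 was lower and Gmnc higher in deuterosome-stage cells in all 4 libraries.

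**Figure D5:**
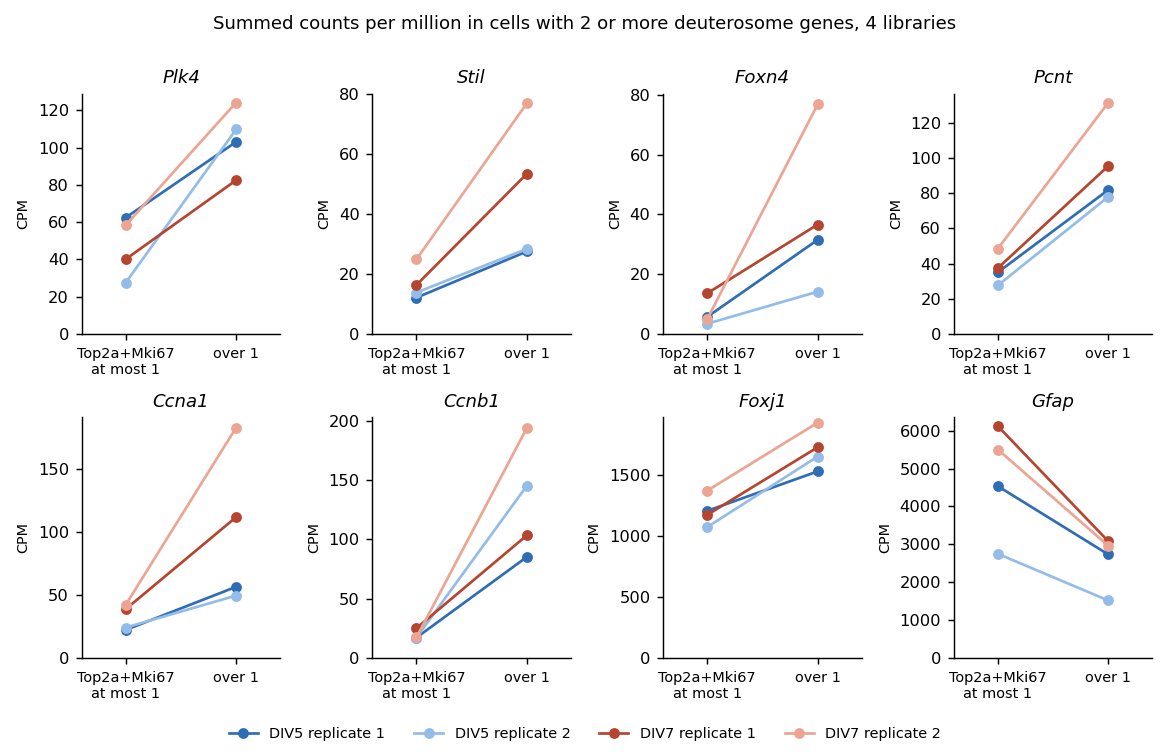
CPM in cells with 2 or more of the 5 genes, with Top2a and Mki67 at most 1 UMI (left, deuterosome-stage cells) and over 1 UMI (right), 1 line for each of 4 libraries. Plk4, Stil, Foxn4, Pcnt, Ccna1, Ccnb1 and Foxj1 lie lower and Gfap higher in deuterosome-stage cells in 4 of 4 libraries.

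Of the axonemal lists 9 of 25 dynein genes and 22 of 47 spoke genes were lower and none higher, while most members did not pass, and these counts were 5 and 13 without DIV5 replicate 1 and 4 and 10 without DIV7 replicate 1. Gfap, by contrast, was among the higher genes. It had 4536, 2750.0, 6120.0 and 5502 CPM in deuterosome-stage cells, against 2734, 1519, 3082 and 2964 CPM in the cells over 1 UMI (0.87 ± 0.11, adjusted p = 2.56e-05), and Aqp4 was higher by 0.93 ± 0.12 (adjusted p = 4.56e-05). Of 24 radial glia genes 11 were higher and 1 lower (5 higher without DIV5 replicate 1, 3 without DIV7 replicate 1 and 6 without DIV7 replicate 2), and 6 of 8 astrocyte markers were higher. The 12 largest rises held genes of neurons such as Dcx, Elavl3 and Stmn3, and Neurod2, a neuronal transcription factor, was higher by 3.55 ± 0.59 with 9.56, 65.7, 0.681 and 31.1 CPM, against 1.85, 0, 0 and 1.01 CPM in the cells over 1 UMI. Snap25, a vesicle fusion protein, and Cck, a neuropeptide, were higher by 2.83 ± 0.49 and 3.11 ± 0.56 (adjusted p of Neurod2, Snap25 and Cck 0.000476, 0.000648 and 0.00246). Neurod2 and Snap25 were highest in DIV5 replicate 2 and Cck in DIV7 replicate 2. Of 9 neuron markers 6 were higher (3 without DIV5 replicate 1), and with cells of 3 or more UMIs of another type left out 1 of 4 tested was. The part of neuronal transcripts in these rises was not tested.

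Over time the cells could be compared only with 12 DIV3 cells of a single library, which was assumed to vary like the other groups. Of these 12 cells only 7 remained when cells with 3 or more UMIs of another type were left out, too few for a fit. The part of such transcripts in the differences below was not tested. DIV7 differed from DIV3 in 373 of 10099 genes (3.69%), 156 higher (1.54%) and 217 lower (2.15%), and leaving out 1 DIV5 or DIV7 library raised the count to 581 to 1438. With scaling to total counts, which moved the median gene by 0.12, 336 were higher and 228 lower, so the balance again depends on the scaling. Foxj1 had 1141 and 1338 CPM at DIV7, against 414 CPM in the DIV3 library (1.58 ± 0.31, adjusted p = 0.0287), and Myb 163 and 246 CPM, against 26.6 CPM (2.92 ± 0.58, adjusted p = 0.0287). Gfap rose by 1.81 ± 0.38 and Tubb4b by 2.18 ± 0.49 (adjusted p = 0.0318 and 0.0477). Of 25 tested interferon-induced genes 4 fell at DIV7 and none rose, and 9 to 17 fell when 1 DIV5 or DIV7 library was left out. Ifit3, an interferon-induced protein, had 6.62 and 9.69 CPM at DIV7, against 141 CPM in the DIV3 library (-4.14 ± 0.48, adjusted p = 0.00465), and the interferon regulatory factor Irf7 22.5 and 7.27 CPM, against 217 CPM (-3.73 ± 0.47, adjusted p = 0.00643). In the comparison with ciliated cells Irf7 was high in both classes of that DIV3 library, with 212 CPM in deuterosome-stage cells, against 385 CPM in ciliated cells. Hes6, a basic helix-loop-helix repressor of the Hes family, fell with a log2 fold change of -2.08 ± 0.46 (adjusted p = 0.0385). With the 7 cells of DIV1 and the 8 cells of DIV3 replicate 2 added to the fit, adjusted p was 0.0729 for Ifit3, 0.193 for Irf7, 0.265 for Myb and 0.0545 for Hes6. The 12 DIV3 cells were also deeper, with a median of 20236.5 UMIs, against 11563 and 10528 UMIs at DIV7. With cells thinned to 5000 UMIs the log2 fold changes of Ifit3, Myb and Hes6 were -3.353, 2.765 and -0.619. These genes then lost their call, while Foxj1 and Gfap kept theirs. The 12 largest rises were all genes with 0 UMIs in the 12 DIV3 cells, for which no fold change is given.

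DIV7 and DIV5, with 2 libraries each, differed in 1 of 10099 genes (0.0099%) by edgeR, in none by DESeq2 and in 893 at an unadjusted p under 0.05. The gene was Tmem212, with 52.9 and 56.9 CPM at DIV7, against 1.24 and 6.66 CPM at DIV5 (4.57 ± 0.55, adjusted p = 0.0391; 0.0941 without DIV3 replicate 1, which shares the estimate of spread). Myb and Foxj1 had log2 fold changes of 0.19 ± 0.30 and 0.16 ± 0.23 (adjusted p = 0.897 and 0.881). The comparison has 2 residual degrees of freedom, and the count was 0 without DIV3 replicate 1, 190 and 235 without DIV5 replicates 1 and 2 and 75 and 84 without DIV7 replicates 1 and 2.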

How the data were processed

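The authors deposited 1 matrix of counts per library, made with Cell Ranger 4.0.0 against mm9 per the submitters' processing notes, while the matrix headers name software version 3.0.2. The values are UMI counts per gene and barcode over 31053 genes. Kept barcodes had 500 or more genes and a mitochondrial share of UMIs not above 10%, and classes were assigned by thresholds on their transcripts. The members, gene lists and tests were chosen with earlier results of these data known. Counts were summed per library and class, and sums of at least 10 cells were tested with edgeR 4.0.16 in R 4.3.3 (TMM scaling, filterByExpr, robust quasi-likelihood test), with the library as a block between classes and with day means between days. Calls have a Benjamini-Hochberg adjusted p under 0.05 over all genes tested. Because scaling was done within each comparison, CPM of a class differ slightly between comparisons. 3' counts were not compared between genes. Doublets were scored with Scrublet (scanpy 1.11.5) and kept in the main analysis. Correlations used exact permutation tests (scipy 1.17.1). The fits were tested on simulated data. Genes named beyond the lists are the 12 largest rises and 12 largest falls with an adjusted p under 0.05, at least 20 CPM in the higher class and the same direction in every library (between days, groups that do not overlap), leaving out the genes of the rule and predicted, haemoglobin, ribosomal and mitochondrial genes. Alternatives were DESeq2 1.42.0, total-count scaling, no filter on low counts, leaving out each library, at least 3 of the 5 genes, a stricter cell filter, doublet removal, thinning to 5000 UMIs, only deuterosome-stage cells under 10 ciliated-cell UMIs, and fits without the block. Added after seeing the data were ciliated cells limited in Top2a and Mki67 and libraries with at least 5 cells. So were fits with cells holding transcripts of other types left out, for which choroid plexus markers were not used. The comparisons of DIV7 with DIV5 and with cells over the Top2a and Mki67 limit were also added then. Some named-rule and list genes are not reported here.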

Additional observations from a re-analysis of the deposited data

How the results depend on the processing

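Counts of called genes moved by over 1.5 times as follows. Deuterosome-stage against ciliated cells (1539) gave 801 with DESeq2, 391 with the stricter cell filter, 40 without the library block, 2441 with deuterosome-stage cells under 10 ciliated-cell UMIs only, and 905 to 1662 when 1 library was left out; with no filter on low counts 33.2% of calls were higher, against 41.5%. Against glial cells (3576) there were 2345 with at least 3 of the 5 genes, 992 with the stricter filter and 1293 without the block, while leaving out 1 library kept the count within 1.5 times, at 2522 to 3616. Cells with 10 or more against under 10 ciliated-cell UMIs (1781) gave 874 with DESeq2, 205 with at least 3 genes, 930 after thinning, 804 without the block and 1153 to 1806 when 1 library was left out. Against cells over 1 UMI of Top2a and Mki67 (1900) there were 784 with DESeq2, 1129 with at least 3 genes, 524 with the stricter filter, 243 without the block and 798 to 2226 when 1 library was left out. DIV7 against DIV3 (373) gave 232 with DESeq2, 564 with total-count scaling, 948 with no low-count filter, 586 with top doublet scores removed, 62 after thinning, 627 in libraries with at least 5 cells and 581 to 1438 when 1 library was left out. DIV7 against DIV5 (1) gave 0 with DESeq2, 3 with total-count scaling, 185 with no low-count filter, 223 with at least 3 genes, 58 with the stricter filter, 5 with doublet scores removed, 3 after thinning, 6 with cells of other types left out and 0 to 235 when 1 library was left out. Signs turned for Grin2b (-1.43 with at least 3 genes), Birc5 (0.73 with ciliated cells limited in Top2a and Mki67) and Fabp7 (-0.27 with the stricter filter) against ciliated cells, for Notch1 (0.41 with at least 3 genes) between cells with 10 or more and under 10 ciliated-cell UMIs, and for Myb against cells over 1 UMI of Top2a and Mki67 (0.052 with at least 3 genes and 0.11 with the stricter filter). The cause was not tested; the stricter filter and the 3-gene rule leave fewer cells. Of the alternatives for named genes 1734 kept the call or its absence, 160 lost the call, 8 gained one and 6 turned sign. Direction was compared only where the gene was called in the main fit or in the alternative.

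The labels do not say whether same-numbered libraries of different days are paired, and the main day fits had no replicate block. Deviations of replicate 1 libraries from their day means correlated by 0.0694 (DIV3 and DIV5), 0.0481 (DIV3 and DIV7) and 0.299 (DIV5 and DIV7) over 7955 genes. These values do not settle whether the libraries are paired. With a replicate block the calls were 1245 for DIV7 against DIV3 and 394 for DIV7 against DIV5, and with libraries of at least 5 cells added 964 and 23. The share against day kept its direction in every alternative, with r 0.729 to 0.852 when 1 library was left out, and its ratio to ciliated cells r 0.362 to 0.716. The stricter filter for the 10-UMI split and for DIV3, the 3-gene rule and the removal of cells with other types' transcripts for DIV3, and DIV7 against DIV3 without DIV3 replicate 1 could not be fitted. The depth of 12 DIV3 cells limits the day comparison, and 128 of the 368 cells rest on 1 UMI of each of 2 genes.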

Other observations

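Ccno was detected in 363 of 4630 neuron-gated cells (7.84%, exact 95% interval 7.08 to 8.65%). In the same cells Deup1 was detected in 0.367%, Mcidas in 0.389%, Cdc20b in 0.108% and Gmnc in 0.238%. With cells thinned to 5000 UMIs before gating, Ccno was left in 3.08% of 3438 neuron-gated cells (2.53 to 3.72%) and Deup1 in 0.145% (0.0472 to 0.339%). These shares are given for each gene on its own, since detection by 3' counts is not compared between genes.

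Of 27 tested interferon-induced genes 8 were lower in deuterosome-stage than in ciliated cells of the same library (2 of 26 without DIV5 replicate 1 and 3 of 26 without DIV7 replicate 1), where 7.87% of all genes were lower. Irf7 had 212, 19.9, 13.2, 22.4 and 7.24 CPM in deuterosome-stage cells, against 385, 48.4, 9.55, 36.8 and 6.90 CPM in ciliated cells (-0.84 ± 0.17, adjusted p = 0.000988), lower in 3 of 5 libraries, and DIV3 replicate 1 stood above the other 4 libraries in both classes.

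Deuterosome-stage cells held Myb in 64.4%, Plk4 in 38.9% and Deup1 in 68.5% of 368 cells, against 87.5%, 71.2% and 91.8% of the 489 cells with at least 2 of the 5 genes and more than 1 UMI of Top2a and Mki67. After thinning to 5000 UMIs the shares were 44.3%, 20.4% and 39.1% of 348 deuterosome-stage cells, against 66.1%, 35.5% and 72.3% of 484 cells over that limit.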
